A study of Mus musculus with 32 samples.

Results

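In short light (SL), the 6 h step from zeitgeber time (ZT, the hour on the lighting schedule) 0 to ZT6 was measured in livers of male C3H/HeNCrl mice fed a high fat diet (HFD). The step rests on 8 of the 32 libraries of the series, the 4 titled SL ZT0 and the 4 titled SL ZT6, which were chosen by those titles and by no measured value. The remaining libraries came from mice of the same strain, sex and diet at ZT12 and ZT18 in SL and at ZT0, ZT6, ZT12 and ZT18 in long light (LL), with 4 mice in each group. Each library holds polyadenylated RNA of the liver of 1 mouse, and p-values therefore rest on variation from mouse to mouse. The hours of light in SL and in LL, the event that sets ZT0, the age of the mice and the time on the diet were not found in the labels, and no group of another strain, sex or diet was compared.

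The liver clock is a feedback loop of transcription factors. ARNTL (BMAL1) and CLOCK bind the E-box CACGTG and switch on their own repressors, the Per and Cry genes, together with Nr1d1, Nr1d2, Dbp, Tef, Bhlhe41 and Ciart. The nuclear receptors NR1D1 and NR1D2 repress, and the ROR receptors activate, a further set that includes Arntl, Clock, Cry1 and Nfil3, while DBP, TEF and HLF bind D-boxes, which NFIL3 also binds as a repressor. With feeding, insulin, glucocorticoids and body temperature, this loop is known to set daily waves of cholesterol and fatty acid synthesis, fat oxidation, urea formation and protein folding in the liver.

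The 8 libraries held 9781121 to 20782403 counted reads (median 14922562), and their mean correlation of log2 expression with group mates lay between 0.981 and 0.987. All 12 pairs of replicates differed by more than counting noise, with a chi-square per degree of freedom of at least 9.84. Defining genes of hepatocytes were abundant in all 8, as the tissue label requires: the summed level of 8 markers, Alb and Apoa1 among them, was 107500 to 115200 CPM (a gene's reads scaled by the library's total times its TMM factor) at ZT0 and 107300 to 123300 CPM at ZT6. None of the 12 Kupffer cell and macrophage markers, 12 sinusoidal endothelial markers or 12 stellate cell and fibroblast markers passed edgeR's test, described below. The summed level of 8 skeletal muscle markers was 6.24 and 14.5 CPM in SL ZT0 replicates 2 and 3, 0.908 and 1.8 CPM in replicates 1 and 4, and 0.458 to 0.71 CPM at ZT6, and none of the 7 that could be tested was called. The summed level of 8 pancreas markers was 60 to 77.9 CPM at ZT0 and 34.7 to 61.8 CPM at ZT6, with Amy2a5 and Cpa1 at 0 in all 8 libraries. Nearly all of that sum was Cela1, an elastase and the 1 marker that could be tested, so it does not describe the pancreas markers as a set. Cela1 fell from 65.8 ± 8.26 CPM to 45.2 ± 12.4 CPM (SD, n = 4 each) with overlap. The call was lost without SL ZT0 replicate 1 or SL ZT6 replicate 1 or 3 (edgeR adjusted p of up to 0.0839). In bulk tissue, fewer cells of a type and less RNA per cell cannot be told apart.

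Fewer than 1 in 10 genes passed the test between ZT0 and ZT6, with more falls than rises. Clock activators, heat shock chaperones, glucocorticoid-induced genes and genes of fat oxidation held rises and no falls, while most genes of cholesterol synthesis and many ER chaperones and interferon-stimulated genes fell. Of 14456 genes tested, 504 (3.49%) rose and 676 (4.68%) fell, 1180 in all (8.16%), at a Benjamini-Hochberg adjusted p under 0.05 in edgeR's quasi-likelihood test. These shares apply beside every count of a list below. As 4.68% of all tested genes fell, a short list without a fall is not by itself a trait of that list. Here and below, rose and fell are used of genes past that threshold, and a log2 fold change is ZT6 minus ZT0 with its standard error (SE). The median change was 0.62 among the rises and -0.50 among the falls, against -0.01 over all tested genes. A change of at least 2-fold was called for 113 rises (0.782% of tested genes) and 93 falls (0.643%). All ZT6 libraries lay above all ZT0 libraries for 955 tested genes (6.61%) and below them for 1103 (7.63%), and among the called genes the groups did not overlap for 432 of the 504 rises and 538 of the 676 falls. Without SL ZT0 replicate 1 the same test called 300 rises and 406 falls, and without the 2 libraries with the most muscle transcripts 388 and 483.

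**Figure D1:**
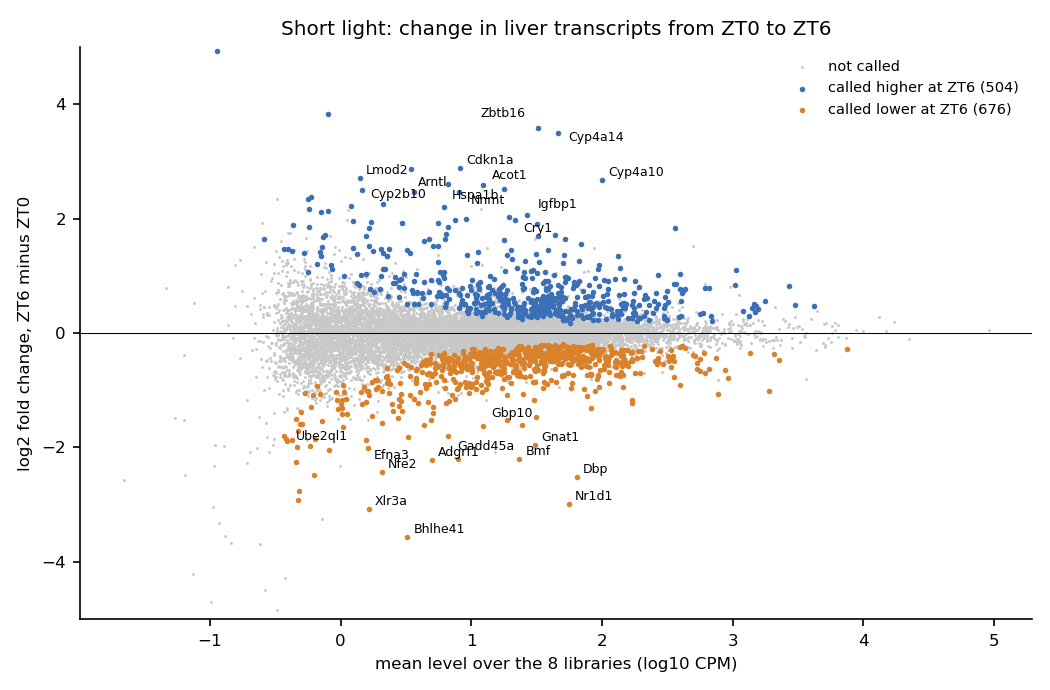
Each point is 1 of the tested genes. The x axis is the mean level over the 8 libraries in log10 CPM and the y axis the log2 fold change, ZT6 minus ZT0. Blue points are the 504 called rises, orange points the 676 called falls and grey points the genes not called, and 8 genes beyond the axis limits of 5 are not drawn. The labelled genes are the 12 largest called rises and the 12 largest called falls with a mean of at least 1 CPM, unnamed loci left out, with Zbtb16 at the top and Bhlhe41 at the bottom.

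The largest change in that range belonged to Zbtb16 (PLZF), a zinc finger repressor induced by glucocorticoids in many tissues. Its level was 4.81, 4.09, 6.23 and 4.82 CPM at ZT0 and 69.5, 49.8, 59.6 and 62.9 CPM at ZT6, so every ZT6 liver lay far above every ZT0 liver. The fitted log2 fold change was 3.59 ± 0.34 (edgeR adjusted p = 4.91e-08). Cdkn1a, the cell cycle inhibitor p21, stood at 1.34, 1.94, 1.83 and 3.02 CPM at ZT0 and 12.7, 11.4, 23.1 and 10.5 CPM at ZT6 (log2 2.89 ± 0.31, edgeR adjusted p = 2.21e-07). Nnmt, which methylates nicotinamide, rose from 7.57 ± 1.78 CPM (SD, n = 4) to 31 ± 11.5 CPM, and the groups did not overlap. Lmod2, an actin nucleator of striated muscle, rose by log2 2.7 ± 0.41 (edgeR adjusted p = 6.72e-05) from 19 reads in the 4 ZT0 libraries to 172 in the 4 ZT6 libraries. Beside it, the summed level of 8 skeletal muscle markers was 0.908 to 14.5 CPM at ZT0, highest in SL ZT0 replicates 2 and 3. At ZT6 that sum was 0.458 to 0.71 CPM, and the part of muscle transcripts was not tested. Cyp2b10, a P450 enzyme known as a target of the receptor CAR, and Igfbp1, which binds insulin-like growth factors, were also among the 12 largest rises. Neither was called without SL ZT0 replicate 1, nor Cyp2b10 without SL ZT6 replicate 3, with edgeR adjusted p of up to 0.145 and 0.0579 over the fits that left out 1 library.

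Among the 12 largest falls, 3 were clock genes, described below. Gnat1, a transducin subunit best known from rod photoreceptors, was at 57.1, 46.9, 45.8 and 45.8 CPM at ZT0 and 14.1, 14.3, 7.72 and 14.4 CPM at ZT6. All 4 ZT6 livers lay far below the lowest ZT0 liver, and the log2 fold change was -1.97 ± 0.19 (edgeR adjusted p = 4.91e-08). Gadd45a, a gene of the DNA damage and growth arrest response, fell from 10.4 ± 4.5 CPM to 2.98 ± 0.77 CPM (SD, n = 4 each), and Efna3, a membrane-bound ephrin ligand, from 2.56 ± 0.99 CPM to 0.674 ± 0.401 CPM. Both overlap a non-coding gene on the opposite strand that also fell. Bmf, a BH3-only protein that promotes cell death, had 58.9, 50.3, 14.9 and 28.7 CPM at ZT0 and 3.93, 15.9, 7.86 and 5.99 CPM at ZT6, with SL ZT6 replicate 2 above SL ZT0 replicate 3 and a log2 fold change of -2.2 ± 0.44 (edgeR adjusted p = 0.00136). Nfe2, a transcription factor of erythroid cells, had 6.73, 0.818, 4.61 and 1.7 CPM at ZT0 and 0.589, 0.347, 0.959 and 0.71 CPM at ZT6, with SL ZT0 replicate 2 inside the ZT6 range (log2 -2.43 ± 0.52, edgeR adjusted p = 0.00273). Beside it, the summed level of 5 erythroid markers ran from 199 to 250 CPM at ZT0 and from 180 to 238 CPM at ZT6, and their part was not tested. Ube2ql1, a relative of ubiquitin-conjugating enzymes, fell without overlap from 2.51 ± 1.44 CPM to 0.654 ± 0.307 CPM (log2 -1.87 ± 0.35, edgeR adjusted p = 0.000794). Xlr3a had 8.12, 0.716, 1.68 and 1.04 CPM at ZT0 and 0.131, 0.971, 0.0959 and 0.355 CPM at ZT6, Adgrf1, an adhesion receptor, 9.51, 17.8, 2.05 and 3.4 CPM at ZT0 and 1.77, 2.77, 0.575 and 1.98 CPM at ZT6, and Gbp10, an interferon-induced GTPase, 6.57, 9.1, 9.74 and 49 CPM at ZT0 and 6.15, 5.27, 7.43 and 4.82 CPM at ZT6. In each, 1 or 2 ZT0 livers were far above the rest and 1 ZT0 liver lay inside the ZT6 range. Xlr3a was not called without SL ZT0 replicate 1 or SL ZT6 replicate 1, 3 or 4, Adgrf1 without SL ZT0 replicate 2, and Gbp10 without SL ZT0 replicate 4 or SL ZT6 replicate 2 or 4. The highest edgeR adjusted p over the fits that left out 1 library were 0.364, 0.0711 and 0.438.

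Motifs of the clock and heat shock factors stand in the promoters of some named genes that rose, fell or were not called. The examples printed were chosen by no stated rule, and the shares over all promoters are given after them. The stretches below are RefSeq sequence of GRCm38.p6, read 5′ to 3′ in the direction of the gene, from the 250 bases before an annotated start, and capitals mark the motif searched. The first 5 are shown for the E-box CACGTG, which reads the same on both strands. Cry1 (chr10:85185084-85185139, minus strand) and Apoa5 (chr9:46268501-46268556, plus strand) rose, Bhlhe41 (chr6:145865559-145865582, minus strand) and Sc5d (chr9:42264368-42264423, minus strand) fell, and Ciart (chr3:95882252-95882359, minus strand), with 3 copies, was not called.
Cry1: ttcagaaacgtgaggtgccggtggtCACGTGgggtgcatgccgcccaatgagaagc
Apoa5: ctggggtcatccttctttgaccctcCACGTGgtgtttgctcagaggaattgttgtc
Bhlhe41: tacgttccgCACGTGagctgggtg
Sc5d: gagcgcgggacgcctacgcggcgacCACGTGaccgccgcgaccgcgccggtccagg
Ciart: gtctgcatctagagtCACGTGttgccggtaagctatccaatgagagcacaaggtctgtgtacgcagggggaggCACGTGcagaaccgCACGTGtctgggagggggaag
Per3 (chr4:151044791-151044895, minus strand), which fell, holds 2 copies of the D-box form TTANGTAA. The ROR element form TAGGTCA was found in Slc45a3 (chr1:131970468-131970524, plus strand), which rose, and on the other strand in Abcb11 (chr2:69342641-69342697, minus strand), which fell. The pair of HSP70 genes Hspa1a (chr17:34972228-34972285, minus strand) and Hspa1b (chr17:34959310-34959367, minus strand) carry the heat shock element form GAANNTTC in stretches that are identical letter for letter.
Per3: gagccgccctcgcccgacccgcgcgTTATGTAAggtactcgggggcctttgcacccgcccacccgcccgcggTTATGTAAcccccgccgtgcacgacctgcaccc
Slc45a3: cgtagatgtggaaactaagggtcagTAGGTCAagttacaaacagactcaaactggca
Abcb11: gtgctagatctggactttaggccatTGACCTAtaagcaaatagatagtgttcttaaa
Hspa1a: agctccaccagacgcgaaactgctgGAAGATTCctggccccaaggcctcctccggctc
Hspa1b: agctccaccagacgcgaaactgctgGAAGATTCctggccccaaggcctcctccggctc

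Over the promoter table, which held 13429 promoters of 10484 tested genes, motif shares were counted on both strands as a description, with no test. CACGTG was present in 8.04% of all promoters, 7.39% of those of genes that rose and 10.5% of those of genes that fell. TTANGTAA was present in 1.49%, 3.29% and 1.53%, and TAGGTCA in 1.86%, 3.08% and 1.66%, in the same order. GAANNTTC was found in 5.1%, 7.19% and 4.85%, and its other phase TTCNNGAA in 6.01%, 6.16% and 4.3%. The cyclic AMP response element TGACGTCA was found in 2.44%, 4.11% and 0.416%, the last being 3 of 721 promoters. CCAAT stood in 35% of all promoters and in 38.6% of both called sets, and ACANNNTGT, the core of the glucocorticoid response element, in 4%, 4.72% and 3.05%. A match shows only that the letters are present. No CACGTG was found in the 250 bases before the listed starts of Arntl, Dbp and Nr1d1.

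Most activators of the clock loop rose. Of 5 tested members, 3 rose and none fell, with a median log2 fold change of 0.90, against 3.49% and 4.68% of all tested genes. Arntl was at 2.94, 2.66, 2.78 and 1.42 CPM at ZT0 and 7.98, 10.5, 21.6 and 14.7 CPM at ZT6, with all ZT6 livers above all ZT0 livers (log2 2.46 ± 0.29, edgeR adjusted p = 1.73e-06). Clock, its partner, rose from 25.5 ± 4.91 CPM to 47.6 ± 12.1 CPM (SD, n = 4 each; log2 0.90 ± 0.20). Rora was not called (log2 0.18 ± 0.20), and Npas2, a paralog of Clock, rested on 10 reads at ZT0 and 3 at ZT6 in all.

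Repressors of the loop did not move as 1 group. Of 10 tested, Cry1 rose and Nr1d1, Nr1d2, Bhlhe41 and Per3 fell. Cry1 was at 9.19, 6.75, 10.3 and 8.79 CPM at ZT0 and 29.5, 35.1, 42.3 and 32.1 CPM at ZT6, without overlap (log2 1.98 ± 0.15, edgeR adjusted p = 6e-10), the smallest p of the named genes. Nr1d1 (REV-ERBalpha) was at 121, 107, 64.6 and 103 CPM at ZT0 and 13.3, 15.9, 8.49 and 12.2 CPM at ZT6 (log2 -2.99 ± 0.31, edgeR adjusted p = 1.25e-07). All 4 ZT6 livers lay well under the lowest ZT0 liver. Its paralog Nr1d2 fell less, from 102 ± 10.3 CPM to 62.1 ± 10.5 CPM (log2 -0.72 ± 0.18, edgeR adjusted p = 0.00907). Bhlhe41 (DEC2) was at 8.07, 10.1, 1.68 and 4.06 CPM at ZT0 and 0.458, 0.416, 0.527 and 0.558 CPM at ZT6, a low transcript at ZT6 in every liver and one that differed several-fold between the ZT0 livers (log2 -3.57 ± 0.44, edgeR adjusted p = 2.62e-06).

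The Per genes and the remaining repressors were not called, or were close to the threshold. Per1 was at 40.3, 58.7, 36.3 and 28.5 CPM at ZT0 and 42.9, 54.5, 43.2 and 55.3 CPM at ZT6 and Per2 at 71.9, 85.1, 89 and 74.9 CPM at ZT0 and 99, 108, 67.2 and 101 CPM at ZT6, and both sets overlapped (log2 0.26 ± 0.26 and 0.23 ± 0.18, edgeR adjusted p = 0.634 and 0.518). Per3 went from 103 ± 12 CPM to 62.1 ± 10.3 CPM without overlap. It was called (log2 -0.73 ± 0.23, edgeR adjusted p = 0.0469) but in none of the 8 fits that left out 1 SL library, in which the adjusted p reached 0.162. Cry2 (log2 -0.28 ± 0.10), Ciart (log2 -0.72 ± 0.35) and Bhlhe40 (log2 -0.31 ± 0.27) were not called. Without the 2 libraries with the most muscle transcripts, 2 of the 4 falling repressors were still called, and Nr1d2 and Per3 were not. The opposite-strand neighbour of Nr1d1, Thra, also fell (log2 -0.56 ± 0.11), and reads from the pair cannot be told apart if strand was not used in counting.

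Clock output factors moved in both directions, 2 of 10 up and 2 down. Dbp, a D-box activator, was at 133, 118, 80.8 and 104 CPM at ZT0 and 24.3, 23.4, 11.8 and 16.8 CPM at ZT6 (log2 -2.52 ± 0.34, edgeR adjusted p = 1.41e-05), and no ZT6 liver reached the ZT0 range. Sphk2, which overlaps Dbp on the opposite strand, rose by 0.48 on the log2 scale. Tef, another D-box activator, went from 307 ± 36.2 CPM to 226 ± 21.6 CPM (log2 -0.44 ± 0.14), a call that was lost in 6 of the 8 fits without 1 library, where the edgeR adjusted p reached 0.140. Hlf, the third of that family, was not called, with 81.5, 132, 79.8 and 89.5 CPM at ZT0 and 103, 101, 86.7 and 85.4 CPM at ZT6 and a log2 value of -0.02 ± 0.15. Nfil3, the D-box repressor, had 19.7, 14.1, 22.5 and 22.9 CPM at ZT0 and 31.9, 31.3, 46 and 44.4 CPM at ZT6 (log2 0.95 ± 0.13, edgeR adjusted p = 1.90e-05), higher in every ZT6 liver. Por, the reductase that passes electrons to microsomal P450 enzymes, had 249, 269, 270.5 and 249.8 CPM at ZT0 and 462, 597, 448 and 612 CPM at ZT6, without overlap (log2 1.03 ± 0.17, edgeR adjusted p = 0.000174). Usp2, Wee1, Upp2, Elovl3 and Nampt were not called, with log2 values from -0.31 to 0.49. Elovl3 was called without SL ZT0 replicate 1 (log2 0.77, edgeR adjusted p = 0.0390), and Nampt, the rate-limiting enzyme of NAD salvage, with DESeq2 (adjusted p = 0.0448) and with no filter (edgeR adjusted p = 0.0302).

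**Figure D2:**
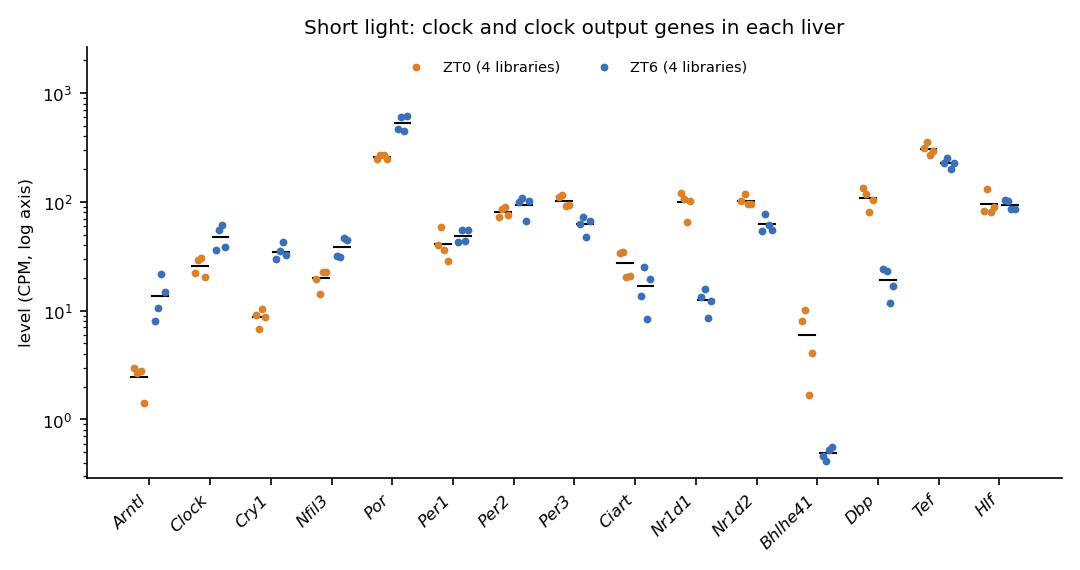
Points are single livers of SL ZT0 (orange) and SL ZT6 (blue), 4 each, with the mean as a black line, and the y axis is CPM on a log scale. Arntl, Clock, Cry1, Nfil3 and Por lie higher at ZT6 in every liver, Nr1d1, Nr1d2, Bhlhe41, Dbp, Per3 and Tef lower, and Per1, Per2, Ciart and Hlf overlap.

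Most genes of cholesterol synthesis fell. This pathway, driven by SREBF2 when cell sterol is low, makes cholesterol from acetyl-CoA, and the list also holds genes of sterol uptake. Of 25 tested genes, 14 fell and 1 rose, with a median log2 fold change of -0.49. Hmgcs1, which makes HMG-CoA, was at 243, 187, 305 and 209 CPM at ZT0 and 124, 83, 115 and 99.5 CPM at ZT6 (log2 -1.16 ± 0.20, edgeR adjusted p = 0.000272), and no values overlapped. Mvd, the last step to isopentenyl pyrophosphate, had 60.5, 29.9, 62.5 and 32.7 CPM at ZT0 and 13.9, 11.4, 14.3 and 27.5 CPM at ZT6 (log2 -1.47 ± 0.27, edgeR adjusted p = 0.000457), the largest fall of the list. Fdft1, which makes squalene, fell from 160.2 ± 19.7 CPM to 97 ± 10.9 CPM (SD, n = 4 each), and Sc5d, a late sterol desaturase, from 693 ± 105 CPM to 438 ± 24.9 CPM. Fdft1 overlaps Ctsb, which was not called.

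The list was not uniform. Srebf2 itself, Tm7sf2, Ebp and Pmvk were not called, with log2 values between -0.08 and 0.09. Transcripts of the 2 INSIG proteins, which hold SREBP precursors in the endoplasmic reticulum (ER), moved in opposite directions, with Insig1 down (log2 -0.78 ± 0.20, edgeR adjusted p = 0.0128) and Insig2 up (log2 0.71 ± 0.16, edgeR adjusted p = 0.00349). The number of falls was 8 without SL ZT0 replicate 1 and 9 without SL ZT6 replicate 3.

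Fatty acid and triglyceride synthesis split within the list, 3 rising and 3 falling of 22, with a median of -0.03. Gpam, the mitochondrial enzyme that starts glycerolipid synthesis, was at 1196, 904, 1402 and 689 CPM at ZT0 and 586, 461, 529 and 424 CPM at ZT6 (log2 -1.07 ± 0.24, edgeR adjusted p = 0.00404), without overlap. It overlaps a low antisense gene that also fell, and it was not called without the 2 libraries with the most muscle transcripts. Srebf1, the insulin-responsive activator of lipogenesis, fell from 763 ± 102 CPM to 469 ± 72.6 CPM without overlap (log2 -0.70 ± 0.16). Fatty acid synthase, Fasn, fell as well, but with overlapping values (log2 -1.01 ± 0.29, edgeR adjusted p = 0.0294). Scd1, Elovl6, Me1 and Dgat2 were not called, with log2 values between -0.07 and 0.27. Acly and Pnpla3, the latter with the lowest value of the list, were not called either, and their values overlapped. They were at log2 -0.82 ± 0.28 and -1.18 ± 0.41 (edgeR adjusted p = 0.0629 and 0.0711). Lpin1, a phosphatidate phosphatase that also acts as a coactivator, went the other way, with 185, 177, 180.2 and 88.9 CPM at ZT0 and 488, 558, 382 and 839 CPM at ZT6 (log2 1.84 ± 0.27, edgeR adjusted p = 3.37e-05). The desaturases Fads1 and Fads2 also rose, but with overlapping values, and neither was called without SL ZT0 replicate 4 or without SL ZT6 replicate 1, nor Fads2 without SL ZT0 replicate 1 or 2 or SL ZT6 replicate 3 (edgeR adjusted p of up to 0.115 and 0.149). Without SL ZT0 replicate 4 or SL ZT6 replicate 1, 1 gene of the list rose, and the falls numbered 5 without SL ZT0 replicate 4 and 1 without the 2 libraries with the most muscle transcripts.

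Genes of fatty acid oxidation rose or did not pass, 9 up and none down of 26, with a median of 0.29. Acot1, a cytosolic acyl-CoA thioesterase and a classic target of the fatty acid sensor PPARalpha, was at 2.67, 3.48, 3.22 and 5.01 CPM at ZT0 and 24.4, 14.6, 27.5 and 17.8 CPM at ZT6 (log2 2.58 ± 0.34, edgeR adjusted p = 7.61e-06). Acot2, its mitochondrial neighbour, had 1.98, 2.56, 3.95 and 3.97 CPM at ZT0 and 13.8, 5.48, 14 and 5.02 CPM at ZT6, and reads may be shared among the near-identical Acot genes of this cluster. Slc25a20, the carnitine carrier of the mitochondrial membrane, rose modestly from 100.4 ± 5.06 CPM to 134 ± 13 CPM (log2 0.42 ± 0.08, edgeR adjusted p = 0.000589). Ppara, Cpt2 and Bdh1 were not called, with log2 values from 0.00 to 0.05, and Cpt1a, the gate for mitochondrial entry, was at log2 0.34 ± 0.12 (edgeR adjusted p = 0.0770).

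The omega-hydroxylases of the same list divided the ZT6 livers. Cyp4a14 was at 3.26, 3.17, 8.94 and 15.2 CPM at ZT0 and 162, 4.23, 151 and 20.2 CPM at ZT6, and Cyp4a10, a close relative with which reads may be shared, at 20.7, 22.2, 29 and 36.7 CPM at ZT0 and 304, 37.9, 287 and 62.1 CPM at ZT6. SL ZT6 replicates 1 and 3 were high in both genes, replicate 2 was low, and for Cyp4a14 replicate 2 lay inside the ZT0 range. The log2 fold changes were 3.5 ± 0.87 and 2.67 ± 0.71 (edgeR adjusted p = 0.00968 and 0.0157). Both calls were lost without SL ZT0 replicate 1, and that of Cyp4a10 also without SL ZT6 replicate 1 or 3, at edgeR adjusted p of up to 0.0503 and 0.0641. Neither gene was called with limma-voom (adjusted p = 0.1455 and 0.0790). The same held without the 2 libraries with the most muscle transcripts (edgeR adjusted p = 0.103 and 0.121). The number of rises in the list was 4 without SL ZT0 replicate 1, 5 without SL ZT6 replicate 1 or 3, and 3 without the 2 libraries with the most muscle transcripts.

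Transcripts of proteins that coat or build lipid droplets rose in 4 of 10 cases and fell in none, with a median of 0.46. Over all tested genes 3.49% rose and 4.68% fell. Plin5, which ties droplets to mitochondria, was at 25.8, 32.2, 34.7 and 22.8 CPM at ZT0 and 79.1, 70.6, 72.8 and 74.2 CPM at ZT6 (log2 1.36 ± 0.14, edgeR adjusted p = 2.05e-07), and the 4 ZT6 livers were within a narrow band. Plin4 had 1.66, 3.17, 2.27 and 2.36 CPM at ZT0 and 12, 7.83, 7.19 and 7.96 CPM at ZT6 (log2 1.92 ± 0.29, edgeR adjusted p = 4.80e-05), and it overlaps Hdgfl2, which was not called. Fitm2, an ER protein needed for droplet formation, rose from 57.8 ± 6.11 CPM to 103 ± 17.7 CPM (SD, n = 4 each). Cidec rose with overlap (log2 0.89 ± 0.28, edgeR adjusted p = 0.0434). Its call was lost in 6 of the 8 fits without 1 library, where the edgeR adjusted p reached 0.273, and also with limma-voom. Plin2, the main liver coat protein, was at 485 CPM and 403 CPM on average and was not called (log2 -0.27 ± 0.14). Angptl4, a secreted inhibitor of lipoprotein lipase counted among the liver hormones, rose from 59.2 ± 13.1 CPM to 128 ± 9.76 CPM (log2 1.11 ± 0.20, edgeR adjusted p = 0.000390).

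**Figure D3:**
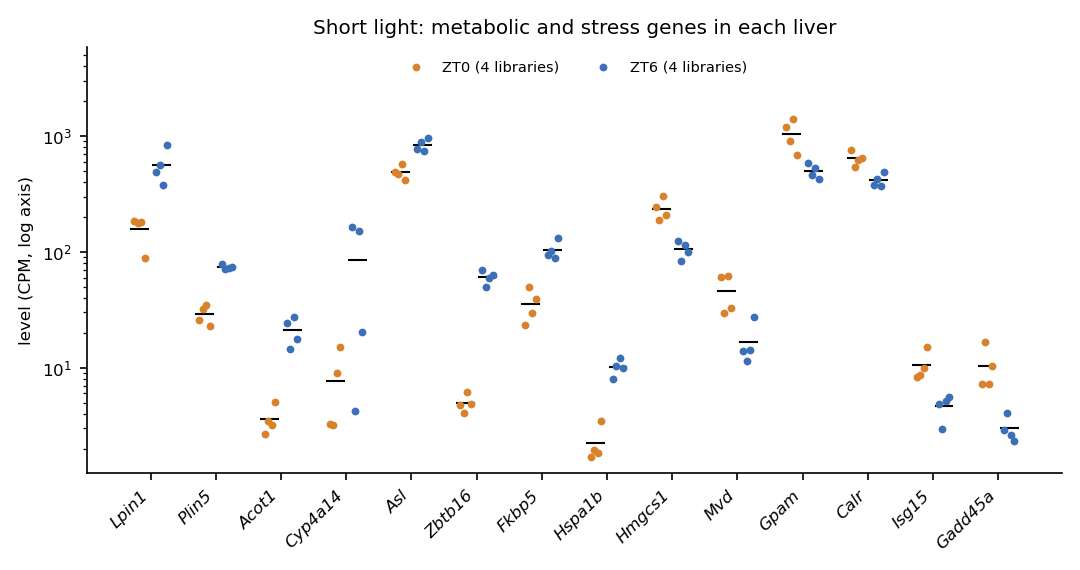
Points are single livers of SL ZT0 (orange) and SL ZT6 (blue), 4 each, with the mean as a black line, and the y axis is CPM on a log scale. Lpin1, Plin5, Acot1, Asl, Zbtb16, Fkbp5 and Hspa1b are higher and Hmgcs1, Mvd, Gpam, Calr, Isg15 and Gadd45a lower in every ZT6 liver, and Cyp4a14 overlaps.

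Of 17 genes of gluconeogenesis and the fasting response, 4 rose and none fell, with a median of 0.11, against 3.49% and 4.68% of all tested genes. Got1, cytosolic aspartate aminotransferase, had 349, 252, 287 and 167 CPM at ZT0 and 552, 489.9, 416 and 461 CPM at ZT6 (log2 0.86 ± 0.16, edgeR adjusted p = 0.000786), and Foxo1, an activator of gluconeogenic genes that insulin excludes from the nucleus, rose from 37.7 ± 7.22 CPM to 57.6 ± 9.15 CPM. Pck1, which makes phosphoenolpyruvate, had 1902, 1902, 2356 and 1705 CPM at ZT0 and 3222, 3753, 3827 and 3132 CPM at ZT6. All ZT6 livers were higher, yet its call was lost without SL ZT0 replicate 1 or 4 or SL ZT6 replicate 3 (edgeR adjusted p of up to 0.0642). G6pc, the last step of glucose release, averaged 435 and 785 CPM and was not called (log2 0.85 ± 0.30, edgeR adjusted p = 0.0736). Without SL ZT0 replicate 1 the list held 2 rises. In the list of glucose uptake, glycolysis and glycogen, 3 of 18 rose, led by Pfkfb1, the liver enzyme that sets fructose 2,6-bisphosphate (43.1 ± 6.88 CPM to 80.3 ± 5.95 CPM), which overlaps Apex2, also risen, and Ppp1r3b, a glycogen-targeting subunit (321 ± 60.9 CPM to 549 ± 49.8 CPM). Pgk1 also rose (log2 0.27, edgeR adjusted p = 0.0443). Its call was lost in 7 of the 8 fits without 1 library, where the edgeR adjusted p reached 0.1065.

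Of 22 genes of amino acid breakdown and the urea cycle, 4 rose (Ass1, Asl, Arg1 and Aass) and none fell, with a median of 0.17. Over all tested genes 3.49% rose and 4.68% fell. The rise of Ass1 (log2 0.37) was not called without SL ZT0 replicate 2 or 4 or SL ZT6 replicate 4. Its edgeR adjusted p reached 0.109 in those fits. Asl, argininosuccinate lyase, was at 492, 469, 569.6 and 421 CPM at ZT0 and 769, 888, 747 and 963 CPM at ZT6 (log2 0.79 ± 0.11, edgeR adjusted p = 1.14e-05), with no overlap. Arg1, which releases urea, rose from 1192 ± 168 CPM to 1624 ± 141 CPM (log2 0.45 ± 0.10), and Aass, which starts lysine breakdown, from 262 ± 28.3 CPM to 384 ± 24.4 CPM. Cps1, the entry step of the urea cycle, was not called (log2 0.38 ± 0.19, edgeR adjusted p = 0.253), and neither was Otc (log2 0.01 ± 0.07).

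One-carbon and methionine metabolism moved in both directions, 4 up and 2 down of 17. Ahcy, which clears S-adenosylhomocysteine, was at 303, 284, 318 and 272 CPM at ZT0 and 486, 523, 483 and 525 CPM at ZT6 (log2 0.78 ± 0.08, edgeR adjusted p = 1.25e-07), and it overlaps a low antisense gene that also rose. Mat1a, the liver enzyme that makes S-adenosylmethionine, had 3279.6, 3392, 3927 and 3504 CPM at ZT0 and 5207, 4778, 4898 and 4718 CPM at ZT6 (log2 0.47 ± 0.10, edgeR adjusted p = 0.00298). Cbs, which takes homocysteine out of the cycle, fell without overlap from 378 ± 56.2 CPM to 270.2 ± 20.5 CPM (log2 -0.48 ± 0.09, edgeR adjusted p = 0.000451). The 4 rises became 2 without SL ZT0 replicate 4, without SL ZT6 replicate 4 or without the 2 libraries with the most muscle transcripts.

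Drug metabolism genes rose in 5 of 22 cases and fell in none, with a median of 0.09. Nr1i2, the xenobiotic receptor PXR, was at 64.8, 70, 76.2 and 63.8 CPM at ZT0 and 123, 125, 116 and 120.4 CPM at ZT6 (log2 0.82 ± 0.09, edgeR adjusted p = 9.10e-07), with little spread in either group and no overlap. Sult1d1, a sulfotransferase, had 75.8, 75.5, 83.2 and 75.6 CPM at ZT0 and 113, 154, 154 and 159 CPM at ZT6 (log2 0.90 ± 0.13, edgeR adjusted p = 1.89e-05), and Cyp3a13 and Sult1a1 rose by log2 0.63 ± 0.12 and 0.49 ± 0.11. Alas1, the rate-limiting enzyme of heme synthesis, averaged 257 and 735 CPM and missed the threshold (log2 1.51 ± 0.49, edgeR adjusted p = 0.0520). For bile acids, Abcb11, the canalicular export pump, fell from 628 ± 124 CPM to 436 ± 23.2 CPM (log2 -0.53 ± 0.11, edgeR adjusted p = 0.00151). Cyp7a1, the rate-limiting enzyme of bile acid synthesis, was called higher but with overlap, at 111, 126, 279 and 203 CPM at ZT0 and 403, 422, 182 and 441 CPM at ZT6, and lost the call in 6 of the 8 fits without 1 library (edgeR adjusted p of up to 0.185).

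The called cytosolic chaperones all rose and the called ER chaperones all fell. Of 22 cytosolic and mitochondrial heat shock chaperones, 10 rose and none fell, with a median of 0.35. Hspa1b, an inducible HSP70, was at 1.71, 1.94, 1.83 and 3.5 CPM at ZT0 and 7.92, 10.3, 12.1 and 9.94 CPM at ZT6 (log2 2.2 ± 0.33, edgeR adjusted p = 5.22e-05). Its near-identical copy Hspa1a had 0, 1, 1 and 3 reads at ZT0 and 20, 26, 27 and 30 at ZT6, and reads may be shared between the copies. Hspa8, the constitutive HSC70, rose from 314 ± 33 CPM to 529 ± 43.6 CPM (log2 0.75 ± 0.14, edgeR adjusted p = 0.000646), and Hsph1, their exchange factor, from 43.6 ± 5.74 CPM to 78.5 ± 10.2 CPM. Hsf1, the factor that activates them, was not called (log2 0.09 ± 0.12), and neither were Hsp90ab1 or the chaperonin subunits Cct2 and Cct3. The rises numbered 5 without SL ZT0 replicate 1 and 6 without the 2 libraries with the most muscle transcripts.

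Of 20 ER chaperones and folding enzymes, 10 fell and none rose, with a median of -0.39. Calr (calreticulin), a calcium-binding chaperone of glycoproteins, was at 758, 539, 621 and 651 CPM at ZT0 and 381, 427, 374 and 488 CPM at ZT6 (log2 -0.62 ± 0.11, edgeR adjusted p = 0.000378), without overlap. Pdia6, a disulfide isomerase, had 330.5, 278, 307 and 344 CPM at ZT0 and 208, 229, 204 and 248 CPM at ZT6 (log2 -0.50 ± 0.08, edgeR adjusted p = 0.000212), again without overlap. Hspa5 (BiP), the main ER HSP70, fell close to the threshold (log2 -0.46 ± 0.15, edgeR adjusted p = 0.0481), and Xbp1, an activator of these genes, fell too (log2 -0.46 ± 0.13). Herpud1, Dnajc3 and Edem1 had positive values and were not called. The falls numbered 4 without SL ZT0 replicate 1 and 6 without SL ZT6 replicate 1 or without SL ZT6 replicate 3. In the list of the integrated stress response, 1 of 11 rose, Ddit4, an inhibitor of mTORC1 that glucocorticoids also induce (6.07 ± 1.27 CPM to 16.4 ± 4.7 CPM).

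Glucocorticoid-induced genes had the highest median of the lists with at least 10 tested members, 0.74, and 5 of 16 rose with none falling. Beside Zbtb16 and Cdkn1a above, Fkbp5, a co-chaperone of the glucocorticoid receptor, was at 23.4, 49.8, 30 and 39 CPM at ZT0 and 93.8, 101, 87.9 and 133 CPM at ZT6 (log2 1.56 ± 0.24, edgeR adjusted p = 8.06e-05). Tsc22d3 (GILZ) had 57.6, 98.2, 73.4 and 72.5 CPM at ZT0 and 151, 239, 189 and 190.4 CPM at ZT6 (log2 1.35 ± 0.20, edgeR adjusted p = 2.94e-05), with no ZT6 liver in the ZT0 range. The list also holds Per1, Sgk1 and Klf9, which are known targets too and were not called (log2 0.26 ± 0.26, 0.23 ± 0.23 and -0.03 ± 0.20), as was the receptor Nr3c1 (log2 -0.03 ± 0.13). Without SL ZT0 replicate 2, 8 members rose, and the same number without both libraries with the most muscle transcripts.

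Interferon-stimulated genes fell in 7 of 18 cases and rose in none, with a median of -0.55 and all 18 fitted values below 0. Isg15, a ubiquitin-like modifier, was at 8.34, 8.59, 9.89 and 15 CPM at ZT0 and 4.84, 2.98, 5.18 and 5.53 CPM at ZT6 (log2 -1.15 ± 0.20, edgeR adjusted p = 0.000339), and Oasl1, a translational repressor, at 10.6, 15.5, 13.3 and 13.4 CPM at ZT0 and 8.25, 5.34, 7.29 and 7.46 CPM at ZT6 (log2 -0.88 ± 0.16, edgeR adjusted p = 0.000399). For both, every ZT6 liver lay below every ZT0 liver. Ddx58, the RNA sensor RIG-I, fell from 43.9 ± 5.15 CPM to 29.4 ± 4.36 CPM (SD, n = 4 each). Irf7, Cxcl10 and Bst2 were not called. Beside this list, the summed level of the 12 Kupffer cell markers ran from 327 to 622 CPM at ZT0 and from 353 to 445 CPM at ZT6, and that of 10 lymphocyte markers from 26.4 to 72 and from 26.6 to 53.7 CPM, and their part in the fall was not tested.

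**Figure D4:**
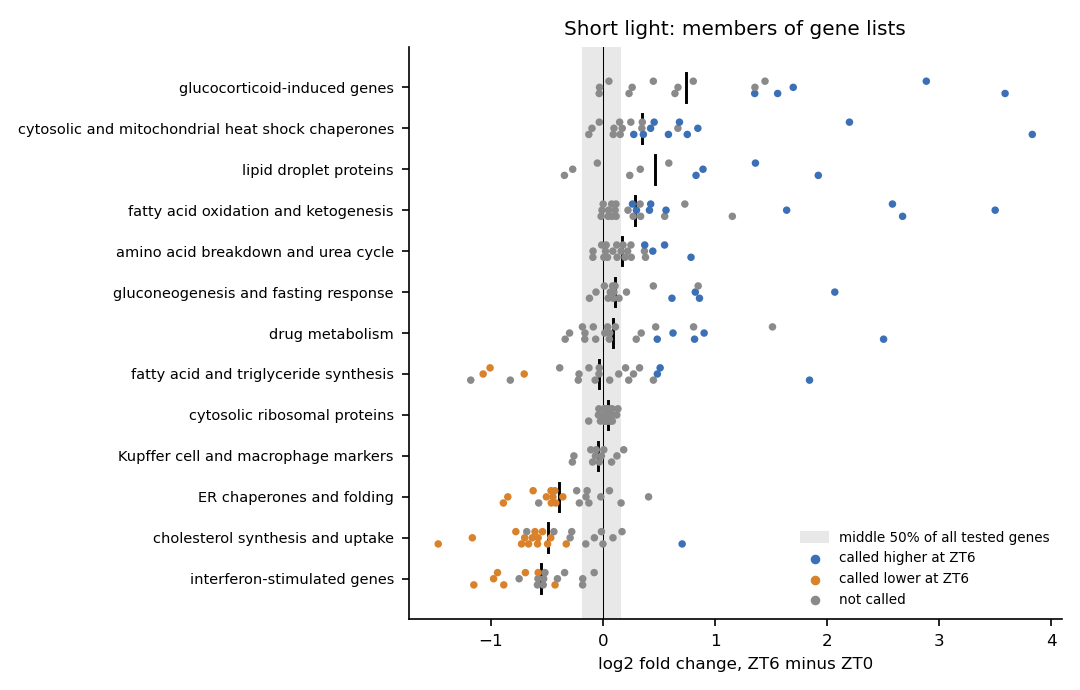
Each point is 1 tested gene of a list, placed at its log2 fold change (ZT6 minus ZT0). Blue points were called higher, orange points lower and grey points were not called. Black bars are the medians of the lists drawn, from 0.74 for glucocorticoid-induced genes to -0.55 for interferon-stimulated genes, and the grey band holds the middle 50% of all tested genes.

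Several gene groups held few called members or none. None of 24 cytosolic ribosomal proteins passed, with log2 values from -0.13 to 0.13, and none of 22 proteasome subunits, from -0.22 to 0.04. Of 20 nuclear-encoded genes of oxidative phosphorylation 1 rose, Cycs, a call lost in 6 of the 8 fits without 1 library (edgeR adjusted p of up to 0.126). Of 6 mitochondrially encoded transcripts none passed, with a median of 0.20. Of 15 immediate early genes 1 fell, Junb, at 31.8, 34.1, 14.9 and 30.2 CPM at ZT0 and 6.09, 10.3, 13.7 and 8.27 CPM at ZT6, a call lost in 6 of the 8 fits without 1 library (edgeR adjusted p of up to 0.0767). Among 18 acute phase genes 1 rose, Saa4 (453 ± 25.2 CPM to 786 ± 136 CPM), and among 12 genes of iron handling 1, the transferrin receptor Tfrc, with 37.7, 27.8, 56.8 and 35 CPM at ZT0 and 105, 95.6, 96.1 and 78.7 CPM at ZT6 (log2 1.25 ± 0.26, edgeR adjusted p = 0.00203). In ribosome biogenesis 3 of 20 rose, of which Nolc1, a nucleolar phosphoprotein, went from 28.5 ± 2.58 CPM to 48.8 ± 7.99 CPM.

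Over the rest of the SL day the genes of this step took different courses. The SL steps from ZT6 to ZT12 and from ZT18 to ZT0 share libraries with it, so values are only set side by side. The test called 791 rises (5.47%) and 671 falls (4.64%) from ZT6 to ZT12, 35 (0.242%) and 66 (0.457%) from ZT12 to ZT18, 101 in all (0.699%), and 558 (3.86%) and 477 (3.3%) from ZT18 to ZT0, 1035 in all (7.16%). The step from ZT6 to ZT12 thus held 1462 calls (10.1%). Arntl was at 38.6 ± 1.98 CPM at ZT12 and 30.5 ± 1.56 CPM at ZT18 (SD, n = 4 each), and Cry1 at 49.3 ± 4.83 CPM and 21.5 ± 1.27 CPM. Nr1d1 was at 3.59 ± 1.42 CPM and 49 ± 21.7 CPM, and Dbp at 2.88 ± 0.681 CPM and 6.06 ± 3.31 CPM. Zbtb16 was at 22.2 ± 7.69 CPM and 22.4 ± 8.03 CPM, both means below its ZT6 range. Hmgcs1 was at 118 ± 19.1 CPM at ZT12 and 178 ± 58 CPM at ZT18, and Por at 137 ± 19.8 CPM and 61.9 ± 12.2 CPM.

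The same ZT hours in long light gave a different step. In LL, 225 genes (1.56%) were called between ZT0 and ZT6, 114 up (0.789%) and 111 down (0.768%), and the SL step differed from the LL step for 1664 genes (11.5%), higher for 715 (4.95%) and lower for 949 (6.56%), by the contrast of both steps in the same edgeR fit. The 2 steps share no library. Of the 504 SL rises, 1 was called up and 60 down in LL, and of the 676 SL falls, 78 were called up and none down. Among the smallest p of that difference were those of Cry1 (log2 difference 3.41, edgeR adjusted p = 1.79e-12), Nr1d1 (-6.27), Gnat1 (-3.49), Cdkn1a (4.9) and Slc45a3 (2.36), a solute carrier. For each of them the LL step had the opposite sign. Nr1d1 fell from 98.8 ± 24.1 CPM to 12.5 ± 3.07 CPM in SL and went from 8.99 ± 4.23 CPM to 87.1 ± 18.2 CPM in LL. Cholesterol genes, 14 of 25 down in the SL step, were 6 up and none down in the LL step.

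The LL step from ZT12 to ZT18 was chosen for comparison as the most alike in an earlier description of these data. A high overlap and few differences were thus likely from the start. This LL step shared more of its calls with the SL step than the LL step over the same ZT hours. It called 885 genes (6.12%), 439 up (3.04%) and 446 down (3.09%), among them 159 of the 504 SL rises (31.5%) and 185 of the 676 SL falls (27.4%), which are 36.2% of its own 439 rises and 41.5% of its own 446 falls. In the opposite direction were 2 of the SL rises and 2 of the SL falls. In that step 13 cholesterol genes fell and 1 rose, and 4 of 16 glucocorticoid-induced genes rose. Of the chaperones, 12 of 22 heat shock chaperones rose and 2 of 20 ER chaperones fell. All 7 skeletal muscle markers that could be tested rose there too. None of them was called in the SL step, where their median log2 fold change was -4.7, and their part was not tested. The difference between these steps was called for 42 genes (0.291%), 17 higher (0.118%) and 25 lower (0.173%) in SL. Without LL ZT12 replicate 3, whose mean correlation with its group mates was 0.969, these were 50 and 47, and over all fits without 1 library 8 to 50 and 11 to 47. A gene not called here is not shown to move alike in both: Bhlhe41 had a log2 difference of -1.65 with an edgeR adjusted p of 0.412.

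Nr1i2, Por and Tmc7 differed in both comparisons with LL. For Elovl3 and Slc30a10, only the difference from the LL step of ZT12 to ZT18 is given. Nr1i2 rose from 68.7 ± 5.71 CPM to 121 ± 3.74 CPM in SL, while LL ran from 62.6 ± 7.82 CPM to 57 ± 6.39 CPM and from 98.2 ± 11 CPM to 95.1 ± 3.81 CPM. The log2 differences were 0.95 and 0.86 (edgeR adjusted p = 1.26e-05 and 0.00249). Por, whose SL values are given above, was at 84.9 ± 25.4 CPM, 94.9 ± 26 CPM, 424 ± 51.2 CPM and 355 ± 37.8 CPM at the 4 LL times (differences 0.87 and 1.29, edgeR adjusted p = 0.0159 and 0.00796). Tmc7, a transmembrane channel-like gene, had 2.3, 3.27, 3.81 and 2.83 CPM at ZT0 and 12.4, 13.4, 11.1 and 10.8 CPM at ZT6 in SL, with every ZT6 liver higher, and log2 differences of 1.94 and 1.87 (edgeR adjusted p = 0.000354 and 0.00466). Elovl3, a fatty acid elongase, was lower in the SL step than in the LL step from ZT12 (-1.75, edgeR adjusted p = 0.00692), as was Slc30a10, a manganese exporter (-1.47, edgeR adjusted p = 0.00249), though neither was called in the SL step itself. These differences from ZT12 to ZT18 were called in all 33 alternatives for the 5 genes. The alternatives include fits without an LL ZT0 or LL ZT6 library, groups that this difference does not compare.

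**Figure D5:**
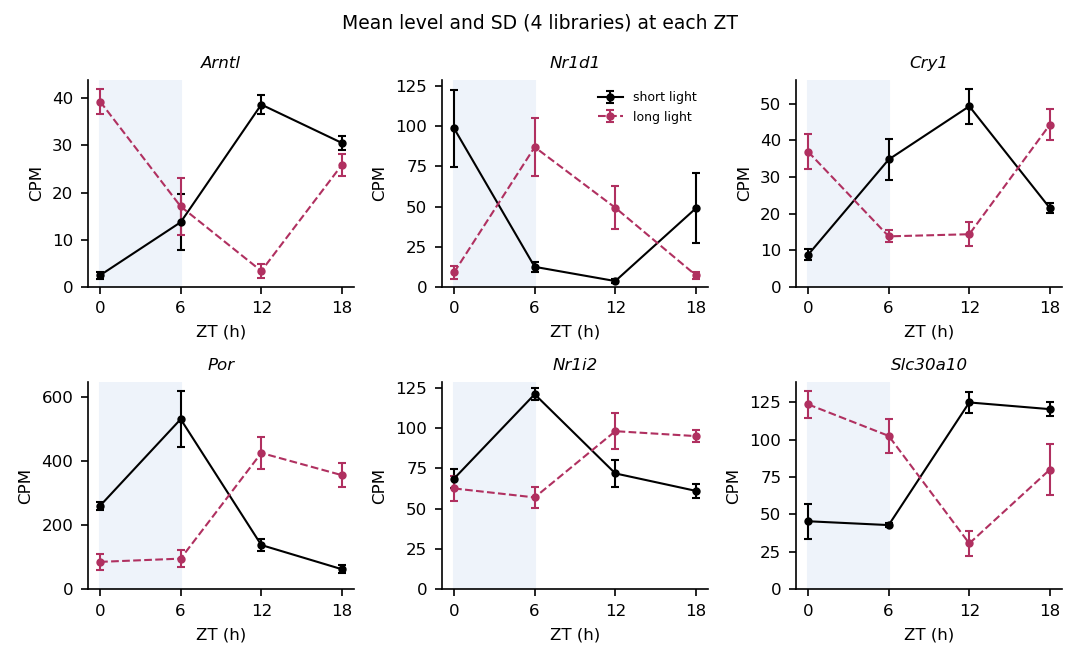
Each panel gives mean CPM (points) and SD (bars, 4 livers) at ZT0, ZT6, ZT12 and ZT18 in SL (solid black) and LL (dashed red) for 1 gene, with the SL step shaded. Arntl and Cry1 rise and Nr1d1 falls across the shaded step in SL and the LL means move in the opposite direction. Por and Nr1i2 rise in SL, with LL means of Nr1i2 at 62.6 and 57 CPM at the same times, and Slc30a10 was not called in SL and is higher at ZT18 than at ZT12 in LL.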

How the data were processed

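Polyadenylated RNA from 32 livers was sequenced with a stranded kit, per the labels' protocols. Per the submitters' processing notes, bcl2fastq 2.20.0, STAR 2.7.2b and featureCounts 1.6.2 were used with the mouse build GRCm38/mm10. No source used here gives the strand setting or the gene annotation of the counting step. The authors deposited raw read counts per gene, and a deposited log2 table was not used. From the counts, edgeR 4.0.16 (R 4.3.3) was run with TMM factors, filterByExpr and 1 quasi-likelihood fit of 8 group means over all 32 libraries, with Benjamini-Hochberg adjustment over 14456 of 55471 genes at a threshold of 0.05. CPM values were scaled with TMM factors. On simulated counts for 14456 genes, of which 14253 passed the filter, the test called 47 of 50 genes set 2-fold higher, 46 of 50 set 2-fold lower, and 7 unchanged genes.

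Depth, 9781121 to 20782403 counts per library, limits the precision of genes at a few reads. Coordinates are those of GRCm38. Lists, genes and the LL step from ZT12 to ZT18 were chosen with earlier results of these data known. Genes were named from these sets, not all of whose members are given: the 12 largest called rises and falls with a mean of at least 1 CPM, the clock lists, up to 4 called members with the smallest p from each list (2 where none was called), the 6 most abundant called genes and the 6 smallest p of each difference of steps, leaving out unnamed loci, pseudogenes and mouse chromosome 18. Other list members given with a value were chosen after their values were seen. Some genes of the lists are counted but not reported here by name. Alternatives covered scaling, filters, DESeq2 1.42.0, limma-voom (limma 3.58.1), the libraries fitted, a replicate block and leaving out libraries. Replicate numbers come from the titles and were not taken as pairs.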

Additional observations from a re-analysis of the deposited data

Results flagged for a closer look

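Among 262 groups of 4 livers (131 named genes at ZT0 and at ZT6), 16 groups (6.11%) held 1 liver far from the other 3, where chance flags about 1 in 20. At ZT0, replicate 4 was high for Hspa1b (3.5 CPM, next 1.94) and Gbp10 (49 CPM, next 9.74) and low for Lpin1 (88.9 CPM, next 177). Replicate 1 was high for Xlr3a (8.12 CPM, next 1.68), Gnat1 (57.1 CPM, next 46.9) and Cirbp (21.8 CPM, next 17.5). Replicate 3 was high for Sult1d1 (83.2 CPM, next 75.8) and low for Thra (14.1 CPM, next 17.2), and replicate 2 was low for Ddit4 (4.19 CPM, next 6.52) and Stra6l (160 CPM, next 175). At ZT6, replicate 3 was low for Gnat1 (7.72 CPM, next 14.1), Usp2 (32.3 CPM, next 46.1) and Cyp7a1 (182 CPM, next 403) and high for Nr2f2 (19.4 CPM, next 17.5). Replicate 1 was high for Plin4 (12 CPM, next 7.96) and low for Sult1d1 (113 CPM, next 154).

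The SL step differed from the LL step over the same ZT hours for 715 genes in the higher and 949 in the lower direction, by a contrast of the steps in edgeR, and for 104 of the named genes. Among the genes with the smallest p, the log2 differences were 3.41 for Cry1, -6.27 for Nr1d1, -3.49 for Gnat1, 4.9 for Cdkn1a and 2.36 for Slc45a3. Against the LL step from ZT12 to ZT18, 17 genes were higher and 25 lower.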

How the results depend on the processing

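Leaving out 1 SL library at a time gave 300 to 468 rises and 406 to 684 falls, lowest without SL ZT0 replicate 1. With no filter on low counts, 520 genes rose and 441 fell, and the groups compared alone gave 464 and 462. DESeq2 called 598 and 668. For the difference from the LL step of ZT12 to ZT18, 17 higher and 25 lower, DESeq2 called 51 and 94, no filter 69 and 75, the groups compared alone 10 higher, and leaving out 1 library 8 to 50 higher and 11 to 47 lower. Without SL ZT0 replicates 2 and 3 together, an alternative chosen after seeing the data, as was leaving out LL libraries, 15 genes were lower. The cause of these shifts was not tested. Of 131 named genes 116 were called, 81 of them in every fit that left out 1 SL library and 77 in every alternative.

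Fold changes near 0 changed sign and were not called in any of these fits. Hlf, -0.02, was at 0.0033 with limma-voom, 0.0009 with no filter, from -0.10 (without SL ZT0 replicate 3) to 0.17 (without SL ZT0 replicate 2) with 1 library left out, 0.01 and 0.02 without SL ZT6 replicates 3 and 4, and 0.14 without SL ZT0 replicates 2 and 3. Slc30a10, -0.08, ran from -0.17 (without SL ZT0 replicate 4) to 0.10 (without SL ZT0 replicate 2), and was at 0.10 without SL ZT0 replicates 2 and 3.

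The replicate numbers were not taken as pairs. Deviations of same-numbered livers correlated at -0.127, 0.195, 0.072 and -0.091, too weakly to show pairing or to exclude it. The same-numbered ZT6 liver was the best match for SL ZT0 replicates 2 and 3, but not for replicates 1 and 4. With a replicate block, 500 genes rose and 664 fell, and 38 genes were lower than in the LL step of ZT12 to ZT18.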
